A study of Mus musculus with 3 samples.

Results

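Angptl1, Grem1 and Ebf3 are described here as 3 genes with stromal roles, or with relatives that have them, in the marrow of castrated mice given testosterone. They were represented by 5 array spots, each with a value on all 3 arrays and annotated to a single gene, out of 6039 tested spots with a value on all 3 arrays, which gave values for 3493 genes. The genes were chosen by their log ratios in this same comparison, in which they had stood out as higher with testosterone. Their values are therefore given as a description and without a test.

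Each array, named T1, T2 or T3, set the RNA of 1 castrated C57BL/6 mouse that received a testosterone pellet against that of its matched castrated mouse that received a placebo pellet (n = 3 pairs). All mice were castrated at 7 weeks of age, treated for 4 weeks with pellets of 12.5 mg made to release over 60 days, and were 17 weeks old. The labels name the tissue as bone marrow, while the RNA came from pulverized bones. Testosterone RNA carried Cy5 on T1 and T3 and Cy3 on T2.

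A deposited value is the log ratio of both channels of a spot, read here as log2 of testosterone over placebo. The direction is likely rather than settled, because it was taken from the design text, where testosterone RNA is the experimental side. The base was inferred from the range of values. If the logs were natural, the folds would be larger, for example 2.71 in place of 1.99 at the higher Angptl1 spot. A ratio holds no expression level, so the tissue label could not be checked against marker levels, and fewer cells of a type cannot be told apart from less RNA per cell. The labels speak of matched mice without saying how the pairs were formed.

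As background, the marrow stroma consists of reticular, perivascular and skeletal progenitor cells that hold the haematopoietic cells in place and feed them with growth factors and adhesion signals. Grem1 encodes Gremlin 1, a secreted cystine-knot protein that binds bone morphogenetic proteins (BMPs), ligands that drive bone formation, and keeps them from their receptors. In mouse bone, Grem1 marks a population of skeletal progenitors near the growth plate. Ebf3 is a transcription factor of the early B-cell factor family which, with its relative Ebf1, maintains the reticular niche cells of mouse marrow and keeps the marrow cavity from ossifying. Angptl1 encodes a secreted protein built like the angiopoietins, with a coiled-coil region and a fibrinogen-like domain, and belongs to a family known for roles in vessels and in metabolism.

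The 3 genes lie on different chromosomes of the mouse assembly GRCm38.p6. Angptl1 occupies chr1:156839023-156861078 on the plus strand, Grem1 chr2:113748675-113758648 on the minus strand and Ebf3 chr7:137193671-137322805 on the minus strand. The 250 bases before the start that RefSeq lists for each gene are printed 5′ to 3′ on the gene's strand, because the 3 genes had positive ratios together and testosterone acts through a receptor that binds DNA. Capitals mark matches, on either strand, to 7 short motifs. The windows are chr1:156838773-156839022 for Angptl1, chr2:113758649-113758898 for Grem1 and chr7:137314446-137314695 for Ebf3. The last lies inside the annotated span of Ebf3, which extends further upstream.
Angptl1: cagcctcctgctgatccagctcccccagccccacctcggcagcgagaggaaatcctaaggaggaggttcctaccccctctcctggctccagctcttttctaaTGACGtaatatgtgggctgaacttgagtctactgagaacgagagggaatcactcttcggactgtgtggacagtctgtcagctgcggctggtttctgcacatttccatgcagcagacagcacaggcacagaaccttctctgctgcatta
Grem1: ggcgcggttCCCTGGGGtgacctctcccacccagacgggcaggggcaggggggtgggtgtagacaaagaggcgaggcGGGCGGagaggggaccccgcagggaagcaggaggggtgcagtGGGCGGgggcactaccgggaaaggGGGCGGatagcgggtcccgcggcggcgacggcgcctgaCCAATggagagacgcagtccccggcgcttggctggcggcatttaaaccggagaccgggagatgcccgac
Ebf3: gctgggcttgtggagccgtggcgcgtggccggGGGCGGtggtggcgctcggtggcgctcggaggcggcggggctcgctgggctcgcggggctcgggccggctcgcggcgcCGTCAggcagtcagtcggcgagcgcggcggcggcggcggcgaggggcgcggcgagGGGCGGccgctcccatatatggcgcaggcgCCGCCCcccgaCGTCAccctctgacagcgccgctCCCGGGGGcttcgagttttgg

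The motifs were the full androgen response element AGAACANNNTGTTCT, its single arm AGAACA, the EBF site CCCNNGGG, the core TGACG of the cAMP response element, the TATA box TATAAA, the CCAAT box CCAAT and the GC box GGGCGG. Every full androgen response element also holds the arm. None of the 3 windows held the full androgen response element, which 3 of 32851 promoter windows of the same length held (0.00913%), or its arm, which 16.1% of them held. An EBF site was found in the windows of Grem1 (CCCTGGGG, starting 241 bases before the gene's start) and Ebf3 (CCCGGGGG, 21 bases before it), against 11.8% of all windows. The Angptl1 window held 1 match to TGACG and the Ebf3 window 2, against 17.8% of windows with any. Grem1 and Ebf3 each held 3 GC boxes, against 32.7% of windows with any, and Grem1 held 1 CCAAT box, against 33.8%. The TATA box was in none of the 3 windows and in 12.4% of all. The windows also differed in base composition: G and C made up 54.8% in Angptl1, 72.0% in Grem1 and 80.0% in Ebf3, against a median of 52.4%. The EBF site and the GC box are set by G and C alone, and the shares over all windows were not matched for base composition. Whether the windows of Grem1 and Ebf3 hold more of these motifs than windows of like composition was not tested. All matches are letters in a window, and binding of a factor was not measured.

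All 15 values of the 5 spots, on all 3 arrays, were above 0, from 0.255 to 1.279 on the log2 scale. Angptl1 and Grem1 lay close together, at gene means of 0.85 ± 0.16 (1.80-fold) and 0.88 ± 0.38 (1.84-fold), and Ebf3 lay lower, at 0.46 ± 0.19 (1.38-fold; mean ± SD, n = 3 pairs each). Because these values led to the choice of the genes, their common sign is no separate evidence.

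Angptl1 had 2 spots annotated to the same transcript accession. At spot A the log2 ratio was 0.690 (T1), 1.019 (T2) and 1.279 (T3), a mean of 0.996 ± 0.30 (1.99-fold). At spot B it was 0.703 (T1), 0.995 (T2) and 0.406 (T3), a mean of 0.70 ± 0.29 (1.63-fold). The 2 spots matched closely in the first and second pair of mice and parted in the third, where spot A had its highest value and spot B its lowest.

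Grem1, the BMP antagonist, had a single spot, with log2 ratios of 0.447 (T1), 1.175 (T2) and 1.023 (T3). T1 was the low array and T2 and T3 were close to each other, which gives a mean of 0.88 with the widest SD of the 3 genes. With only 1 spot, no second measurement of Grem1 bears on these values.

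Ebf3, the niche transcription factor, had 2 spots annotated to different records, spot A to an expressed sequence tag and spot B to a genomic clone. Spot A had log2 ratios of 0.255 (T1), 0.932 (T2) and 0.409 (T3), with a mean of 0.53 ± 0.35 (1.45-fold). Spot B had 0.449 (T1), 0.422 (T2) and 0.301 (T3), with a mean of 0.39 ± 0.08 (1.31-fold). Spot B varied little between pairs, while spot A was highest on T2 (its mean without T2 was 0.33). The order of the spots even turned: spot B was higher on T1 and spot A on T2 and T3. Whether either spot also captured transcripts of related Ebf genes was not tested.

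**Figure D1:**
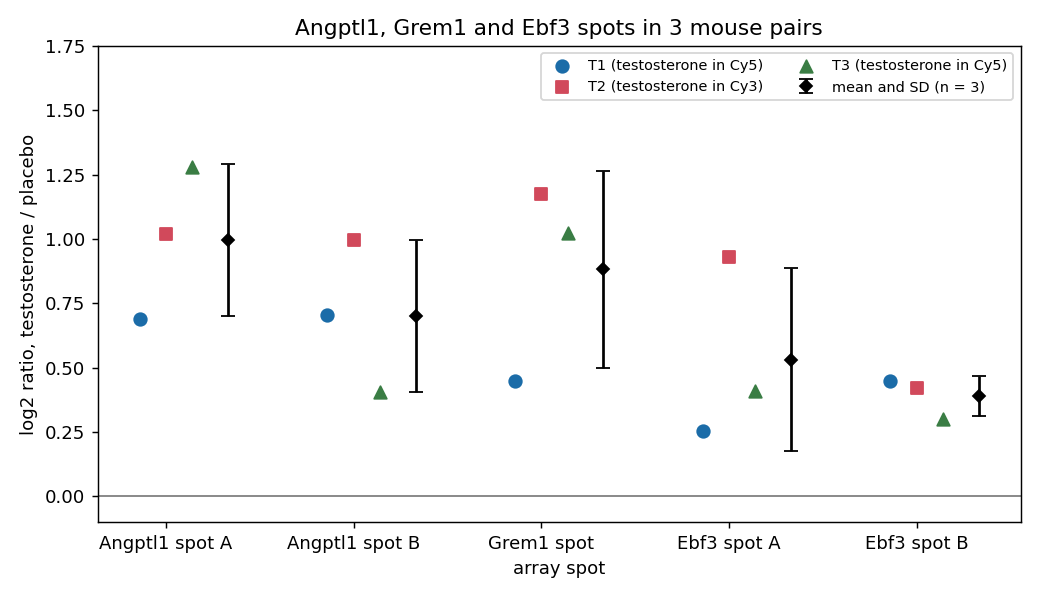
Log2 ratio of testosterone to placebo (y axis) at the 5 spots of Angptl1, Grem1 and Ebf3 (x axis). Coloured points are the arrays T1, T2 and T3, and black diamonds with bars are the mean and SD over 3 pairs. All points lie above 0, T1 is low for Grem1, and the 2 Angptl1 spots part only on T3, at 1.279 and 0.406.

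The arrays carried 383 pairs of spots that shared an accession and were measured on all 3 arrays, the Angptl1 pair among them. These show how far spots of 1 accession usually differ, although whether a pair carried the same probe is not known. Within such pairs the median absolute difference was 0.068 (T1), 0.124 (T2) and 0.109 (T3). The Angptl1 spots differed by 0.013 on T1 and 0.024 on T2, and on T1 only 10.7% of the pairs differed by less. On T3 they differed by 0.873, more than every other pair on that array, where the 90th percentile was 0.318. The third mouse pair's Angptl1 ratio thus lies between 0.406 and 1.279 depending on the spot, a spread within 1 array larger than that of the gene means between arrays (0.70 on T1, 1.01 on T2 and 0.84 on T3). For Ebf3 the 2 spots differed by 0.194 (T1), 0.510 (T2) and 0.108 (T3). Among 688 genes with exactly 2 spots, whatever the accession, 87.9% differed by less than Ebf3 did on T2.

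**Figure D2:**
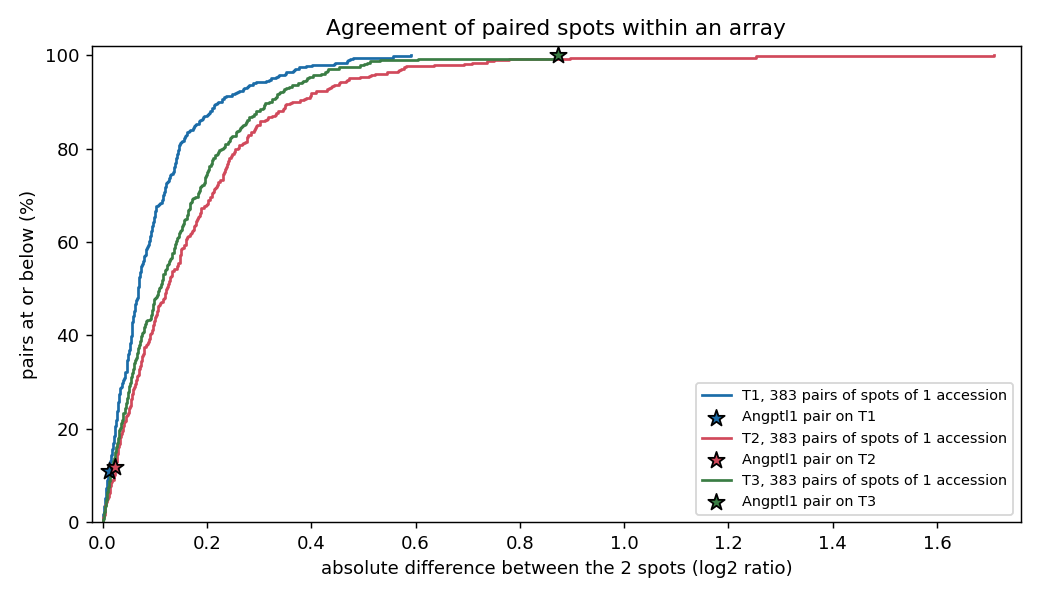
Share of the 383 spot pairs with a common accession (y axis, in percent) whose 2 spots differ by at most the log2 amount on the x axis, 1 line per array. Stars mark the Angptl1 pair, which sits near the origin on T1 and T2 (0.013 and 0.024) and at the far end of the T3 line (0.873).

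Against all 3493 genes, with spots averaged per gene, 12 genes had a higher mean than Grem1, 13 a higher mean than Angptl1 and 140 a higher mean than Ebf3. With the sign of T2 turned, 696 genes were above Grem1, 234 above Angptl1 and 1683 above Ebf3. Angptl1 stood above 99.4% of genes on T1, 98.3% on T2 and 99.2% on T3. Grem1 stood above 96.5%, 98.9% and 99.5% of genes on T1, T2 and T3. Ebf3 stood above 92.7%, 94.9% and 91.7% on T1, T2 and T3. At gene level Angptl1 was thus the most even of the 3 in rank, and Grem1 had its lowest rank on T1. The evenness of Angptl1 comes from averaging spots that part on T3. Among all spots, its spot A stood above 99.5%, 97.1% and 99.8% on T1, T2 and T3, and spot B above 99.5%, 96.8% and 91.1%. The median gene had a mean of -0.07, and 37.7% of gene means were above 0.

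T2 was the array with the highest gene-level ratio for each of the 3 genes, and it is also the array of exchanged dyes and of the widest spread (SD over all spots 0.497, against 0.303 on T1 and 0.332 on T3). Of the 637 genes above 0 on all arrays, 56.7% were highest on T2 as well (with the sign of T2 turned, 36.8% of 234 such genes). Expressed as distance from the array's median in units of its scaled median absolute deviation, Angptl1 stood at 2.55 (T1), 2.62 (T2) and 3.44 (T3). On that scale Grem1 stood at 1.65, 3.03 and 4.15, and Ebf3 at 1.31, 1.82 and 1.51, on T1, T2 and T3. T3, not T2, was then the highest array of Angptl1 and Grem1 at gene level. The 2 Angptl1 spots parted here too. Spot A stood at 2.53 (T1), 2.65 (T2) and 5.16 (T3), and spot B at 2.57, 2.59 and 1.72, with T3 its lowest array. The mean over T1 and T3, which share a dye orientation, was 0.77 for Angptl1, 0.74 for Grem1 and 0.35 for Ebf3, beside 1.01, 1.18 and 0.68 on T2 alone. A fit with a dye term gave 0.89 for Angptl1, 0.955 for Grem1 and 0.52 for Ebf3, but with 1 array in the other orientation, dye and mouse pair cannot be told apart. If the deposited T2 value were Cy5 over Cy3, its sign would have to be turned, and the gene means would be 0.18 for Angptl1, 0.098 for Grem1 and 0.01 for Ebf3.

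**Figure D3:**
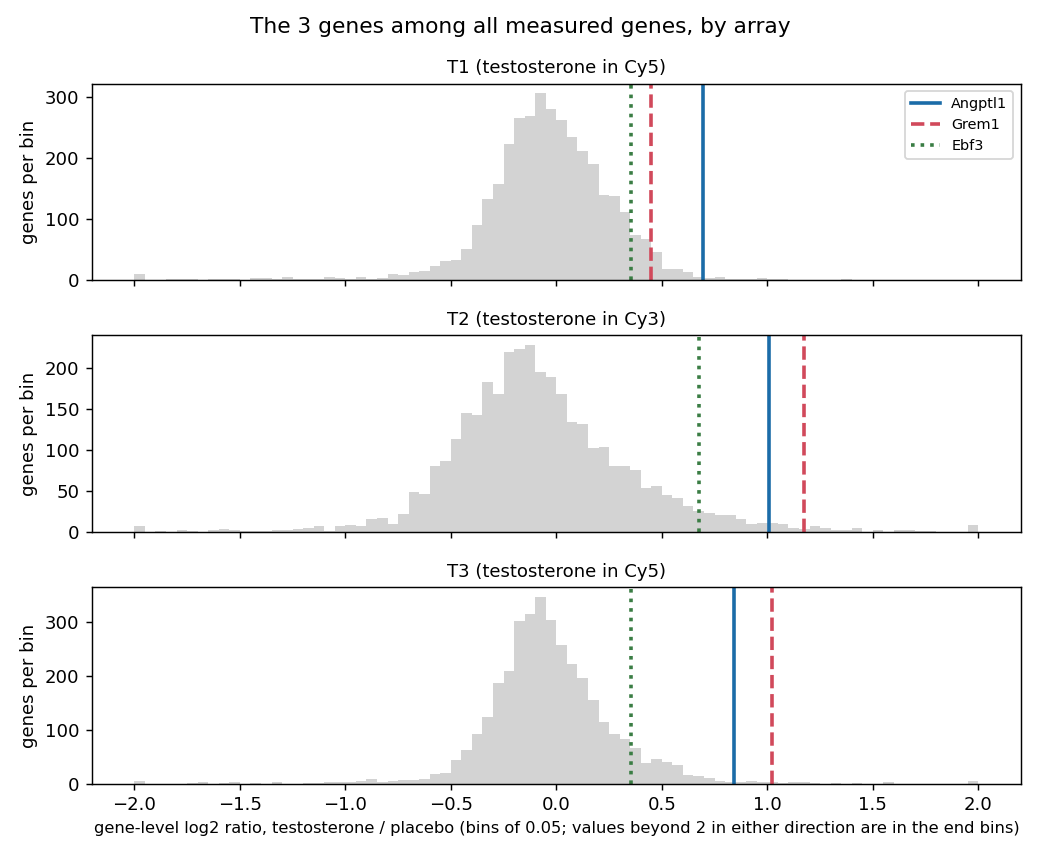
Number of genes per bin (y axis) by gene-level log2 ratio of testosterone to placebo (x axis), 1 panel per array, for 3493 genes in grey, with vertical lines for Angptl1 (solid), Grem1 (dashed) and Ebf3 (dotted). The 3 lines lie in the right tail in each panel, farthest out relative to the width of the distribution on T3 for Angptl1 and Grem1, and Ebf3 is the innermost line each time. The Angptl1 line averages spots A and B, which part on T3.

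The spots were also compared with their print blocks, taken here by spot number as 32 runs of 361 consecutive spots. Both Angptl1 spots were in block 7, with block medians of -0.019 (T1), -0.054 (T2) and -0.019 (T3). Block 23 with Grem1, block 14 with Ebf3 spot A and block 12 with Ebf3 spot B had medians between -0.083 and 0.0185. Each of the 5 spots lay above its block's median on all 3 arrays. By mean, Grem1 ranked 1 of 182 measured spots in its block, the Angptl1 spots 3 and 5 of 231, and the Ebf3 spots 8 of 134 and 25 of 212. With the sign of T2 turned the ranks were 50 for Grem1, 4 and 87 for the Angptl1 spots A and B, and 106 and 44 for the Ebf3 spots A and B.

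The genes whose values on the 3 arrays lay nearest to each member, by Euclidean distance over T1, T2 and T3 among 3492 other genes, were farther off for Angptl1 and Grem1 than for Ebf3. Nearest to Angptl1 was Grem1 itself, at a distance of 0.35, followed by Ly6g6c (0.38) and Rtg4 (0.39). Nearest to Grem1 were Cc2d2b (0.23), Osbpl1a (0.25) and Rtg4 (0.34). Ebf3 had neighbours at 0.056 (Pdhb), 0.072 (Hps3) and 0.093 (Dctpp1). Apart from Grem1, none of these neighbours was in the stromal, BMP, angiopoietin or EBF lists. With 3 arrays, such closeness describes the values only. Within pairs of mice, Angptl1 exceeded Ebf3 by 0.34 (T1), 0.33 (T2) and 0.49 (T3), while Angptl1 and Grem1 changed order between arrays (Angptl1 minus Grem1 was 0.25, -0.17 and -0.18 on T1, T2 and T3).

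Around the 3 genes, 7 lists of related genes were examined, for marrow stroma, for BMP ligands, receptors with Smads, antagonists and targets, for angiopoietins with vascular growth factors, and for the EBF family with its partners. Apart from the 3 genes, 36 of the listed genes were measured. Of these, 0 were called higher, 2 were called lower, Igfbp5 and Fstl1, and 34 did not pass the test, limma with Benjamini-Hochberg adjustment over all genes and a threshold of 0.05. At an unadjusted p under 0.05 there were 8 higher and 5 lower of the 36, beside 426 higher (12.2%) and 557 lower (15.9%) of all 3493 genes, 28.1% in both directions. The unadjusted counts of the single lists are to be read against those shares. Over all 3493 genes the same fit called 1.83% higher and 3.32% lower, and over all 6039 spots it called 1.13% higher and 1.71% lower. The median of the 36 genes was -0.03, beside -0.07 for all genes. That split of called genes, 64 higher and 116 lower as deposited, became 8 and 55 once the array medians were set to 0, 173 and 134 when spreads were equalised too, and 201 and 213 with a dye term. A fit that leaves out an array rests on only 2 pairs and on a variance that limma shares over genes. Its p values therefore say little about a gene's own spread between pairs of mice. A fit with a dye term fits T2 exactly, as the only array of its orientation, so its residual spread comes from T1 and T3 alone. The p values with a dye term share this limit. Without T1, 300 genes were called higher and 337 lower.

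The ligands that Gremlin 1 binds include those of Bmp4 and Bmp7. Bmp4 had log2 ratios of 0.12 (T1), 0.67 (T2) and 0.47 (T3), with a mean of 0.42 ± 0.28 (limma adjusted p = 0.0859, n = 3). Bmp7, a related ligand, had 0.012, 0.70 and 0.37 on the same arrays (mean 0.36 ± 0.34, limma adjusted p = 0.145). As for Grem1, T1 was the low array and T2 the high one for both ligands, and neither passed the test. T2 was also the highest array for 56.7% of the 637 genes above 0 on all arrays. Bmp8a stood at -0.05 ± 0.06. Bmp4 passed when a dye term gave both dye orientations equal weight (0.48), a fit whose residual spread comes from T1 and T3 alone. Both ligands passed without T1, their low array (limma adjusted p = 0.00287 for Bmp4 and 0.00588 for Bmp7). Without T1, 300 of all 3493 genes were called higher, against 64 in the main fit.

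Of 8 receptor and Smad genes, 0 passed the test, with 1 higher and 3 lower at an unadjusted p under 0.05. Smad5, a transcription factor that BMP receptors activate, had the lowest mean of this list, -0.39 ± 0.10 (limma adjusted p = 0.0616, n = 3), with -0.31 (T1), -0.50 (T2) and -0.35 (T3). It passed with a dye term (-0.41) and without T1 (-0.42, adjusted p = 0.0274 by limma). Without T1, 337 of all 3493 genes were called lower. Smad4, the partner shared by the BMP and TGF-beta branches, stood at -0.31 ± 0.16, and the TGF-beta receptor Tgfbr2 at -0.28 ± 0.25. Acvrl1, a receptor of BMP-family ligands on endothelial cells, had the highest mean, 0.33 ± 0.29. The BMP receptor Bmpr2 ranged from -0.46 on T1 to 0.22 on T2. The type I receptor Tgfbr1 (-0.07 ± 0.03), the co-receptors Tgfbr3 (0.06 ± 0.07) and Eng (-0.003 ± 0.25) were near 0.

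Among the other antagonists, Fstl1, a secreted follistatin-like glycoprotein that can inhibit BMP signalling, fell by 0.61 ± 0.19 on the log2 scale (1.53-fold lower, limma adjusted p = 0.0321, n = 3). Its gene-level ratios were -0.44 (T1), -0.81 (T2) and -0.58 (T3), below 0 in all 3 pairs and opposite to Grem1 in each. Its spots differed on T1, at -0.805 and -0.077. It did not pass by limma once T2 (-0.51, adjusted p = 0.18) or T3 (-0.62, adjusted p = 0.249) was left out. With the sign of T2 turned its mean was -0.071, and 0 of all 3493 genes passed. Fst, follistatin, a binder of activins and BMPs, had -0.17 (T1), 0.54 (T2) and 0.37 (T3), with a mean of 0.25 ± 0.37. It passed without T1, its low array (0.46, adjusted p = 0.0167 by limma), where 300 of all 3493 genes were called higher. The pseudoreceptor Bambi (0.12 ± 0.11) and the extracellular modulator Twsg1 (-0.09 ± 0.20) did not pass either.

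Of 6 measured BMP target genes 0 passed the test, with 2 higher and 0 lower at an unadjusted p under 0.05. Id1 and Id2, inhibitors of differentiation that BMP signals induce in many cells, stood at -0.03 ± 0.30 and 0.09 ± 0.26, each with T1 as the high array (0.31 for Id1 and 0.39 for Id2). Grem1 had its lowest ratio on that array, but a link between Grem1 and the Id genes was not tested. Junb, which many other stimuli also induce, had 0.009 (T1), 2.03 (T2) and 0.94 (T3), with a mean of 0.99 ± 1.01 (limma adjusted p = 0.0951). It passed with a dye term (1.25) and without T1 (1.49, adjusted p = 5.5e-09 by limma). The p without T1 rests on T2 and T3 alone and on a variance shared over genes. It does not measure the spread of Junb itself, which was wide between these arrays. Atoh8 was at 0.27 ± 0.09 and the corepressor gene Tgif1 at -0.28 ± 0.46.

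In the angiopoietin list, 5 genes were measured beside Angptl1, and 0 of them passed the test, also with 0 at an unadjusted p under 0.05. Angpt1, a stromal ligand of the endothelial receptor Tie2, had a mean of -0.09 ± 0.08 (n = 3), with -0.17 (T1), -0.09 (T2) and -0.01 (T3). Tie1, the related receptor, was at -0.03 ± 0.12. Of the vascular growth factor genes, Vegfa had 0.15, 0.92 and -0.08 on T1, T2 and T3 (0.33 ± 0.52). It passed with a dye term (0.48), a fit in which T2 adds nothing to the residual spread. Beside it stood its receptor Kdr at -0.25 ± 0.26 and the co-receptor Nrp1 at 0.12 ± 0.20. No other angiopoietin-like gene gave a value on all 3 arrays. In the EBF list Runx1, a haematopoietic transcription factor, was the single other gene measured, at 0.02 ± 0.14.

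The stromal list held 13 measured genes beside Grem1 and Ebf3, of which 0 were called higher and 1 lower, with 3 higher and 2 lower at an unadjusted p under 0.05. None of the defining products of the reticular niche cells passed the test. The chemokine gene Cxcl12 had -0.12 ± 0.11, with -0.23 (T1), -0.01 (T2) and -0.14 (T3). Kitl, the stem cell factor, stood at -0.03 ± 0.16 and the adhesion molecule Vcam1 at 0.11 ± 0.12. The Kitl mean averages spots of opposite sign on T1 (0.364 and -0.281) and on T3 (-0.086 and 0.237). The receptors of mesenchymal cells Pdgfra and Pdgfrb were at -0.19 ± 0.08 and -0.15 ± 0.43. Adjusted p for these genes ran from 0.25 (Pdgfra) to 0.855 (Kitl) by limma.

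Nearer to the 3 genes within this list were Igfbp4, Csf1 and Prrx1. Igfbp4, a secreted binder of insulin-like growth factors, had log2 ratios of 0.23 (T1), 1.23 (T2) and 0.47 (T3), with a mean of 0.64 ± 0.52 (limma adjusted p = 0.073). Csf1, the macrophage growth factor, had 0.02, 0.84 and 0.57 (0.48 ± 0.42, adjusted p = 0.104), and Prrx1, a homeobox factor of limb mesenchyme, 0.17, 0.76 and 0.46 (0.46 ± 0.30, adjusted p = 0.073). In all 3 T1 was lowest and T2 highest, and none passed. Grem1 also had T1 lowest and T2 highest, but 56.7% of the 637 genes above 0 on all arrays were highest on T2. After centring and scaling the arrays, Igfbp4 (0.63, adjusted p = 0.0446) and Prrx1 (0.48, adjusted p = 0.0492) passed. Igfbp4 and Prrx1 also passed with a dye term. All 3 passed without T1, their low array, at means of 0.85 for Igfbp4, 0.71 for Csf1 and 0.61 for Prrx1. In that fit 300 of all 3493 genes were called higher. Igfbp5, another binder of insulin-like growth factors, fell by 1.57 ± 0.29 (2.96-fold lower, limma adjusted p = 0.00063, n = 3), with -1.28 (T1), -1.85 (T2) and -1.56 (T3). Leaving the 3 genes aside, it was the single called gene of the stromal list, and the call held when any 1 array was left out. With the sign of T2 turned its mean was -0.33, and 0 of all 3493 genes were called. Lpl, Tgfbr2, Eng and Angpt1 made up the rest, at means of -0.30, -0.28, -0.003 and -0.09.

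**Figure D4:**
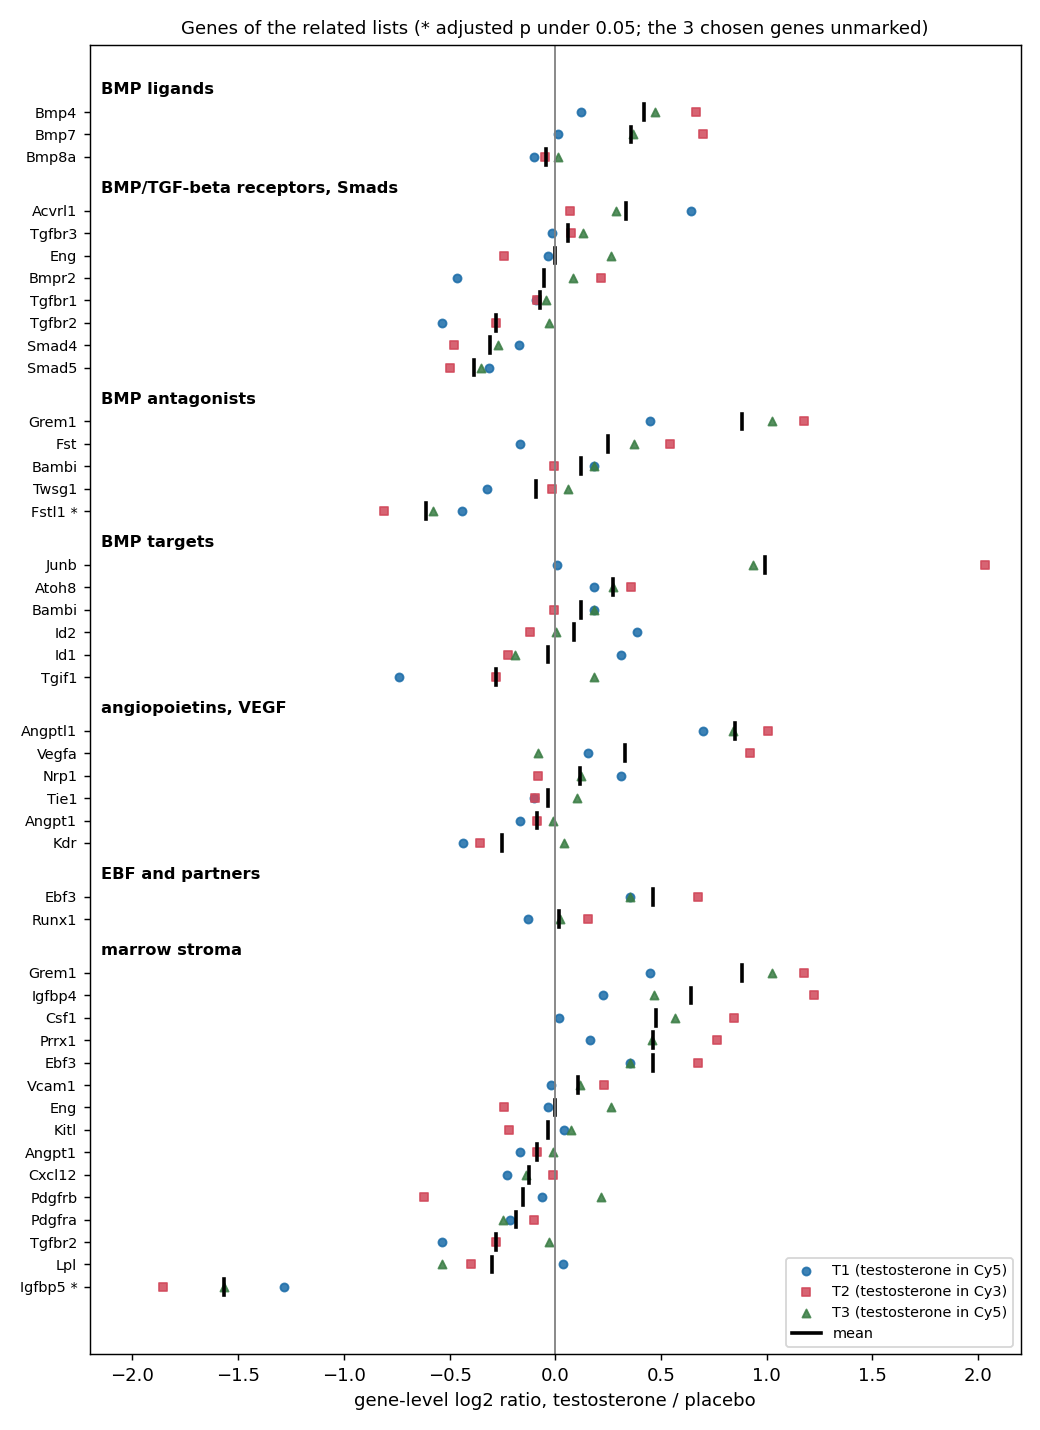
Gene-level log2 ratio of testosterone to placebo (x axis) for each measured gene of the 7 related lists (y axis, grouped by list and ordered by mean), with 1 symbol per array and a black bar for the mean. Angptl1 leads the angiopoietin list at 0.85 and Grem1 the antagonist and stromal lists at 0.88, while Igfbp5 and Fstl1, marked by asterisks, lie to the left of 0 on all arrays.

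Markers of other cells in the sample were set beside these values, with medians by array in the order T1, T2, T3. Of 4 endothelial markers 0 were called (median -0.02; -0.07, -0.17 and 0.18 by array), and of 6 mural and smooth muscle markers 0 (median -0.11; 0.13, -0.21 and 0.09 by array). Of 10 fibroblast and matrix genes 1 was lower, the collagen Col6a1 (-0.81 ± 0.22, limma adjusted p = 0.0101), which did not pass without T2 (adjusted p = 0.0967) or without T3 (0.162), and T1, T2 and T3 had medians of 0.06, -0.42 and -0.13 for the list. The 3 measured osteoblast genes had medians of 0.42, -1.11 and -0.16 by array with 0 called, and of 4 adipocyte genes 1 was lower, the desaturase Scd1 (-1.21 ± 0.41, limma adjusted p = 0.00547; 0.0701 without T2). The adipocyte medians were -0.13, -0.42 and -0.34 by array, and Aoc3, an amine oxidase of adipocytes and vessels, stood at 0.41 ± 0.20 (limma adjusted p = 0.0675), above 0 on all arrays. Without T1, with centring and scaling, or with a dye term, 1 adipocyte gene was called higher. The osteoblast genes numbered 3 called lower of 3 without T1 and 1 with a dye term. Of 6 skeletal muscle markers 0 were called, all with means below 0 (medians of -0.02, -0.84 and -0.43 by array), 4 of them lower at an unadjusted p under 0.05. Without T1 all 6 were called lower, with a dye term 4, with spots on at least 2 arrays 2 and with centring and scaling 1. Without T1 the mural list had 2 called lower, the matrix list 3 and the adipocyte list 2. These counts are to be read against those over all 3493 genes, where the main fit called 116 lower. Called lower there were 337 without T1, 213 with a dye term, 134 with centring and scaling, and 109 of 4101 with spots on at least 2 arrays. Called higher were 300 without T1, 201 with a dye term and 173 with centring and scaling, against 64. The medians of these 6 lists were each lowest on T2, the array on which the gene-level ratios of Angptl1, Grem1 and Ebf3 were highest. The median over all genes was lowest on T2 as well (-0.115, against -0.037 on T1 and -0.055 on T3), and T2 had the widest spread. The lists also share genes: Col1a1 and Col1a2 are in the matrix and osteoblast lists, and Des in the mural and muscle lists.

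In the B-lymphocyte lineage 8 of 10 measured markers were lower and 0 higher, with medians of -2.23, -2.16 and -1.60 by array. The lowest means were those of Vpreb3 (-2.98 ± 0.66), Fcrla (-2.51 ± 0.22) and Bach2 (-2.47 ± 0.28), with limma adjusted p of 0.00047, 6.9e-05 and 6.9e-05. The median was nearest 0 on T3. With the sign of T2 turned all 8 calls were lost, but 0 of all 3493 genes were called then. That loss is therefore not particular to the B lineage. The part of these cell types in the ratios of Angptl1, Grem1 and Ebf3 was not tested.

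The gene means of Angptl1, Grem1 and Ebf3 stayed positive under every processing tried. Leaving out 1 array at a time gave 0.77 to 0.92 for Angptl1, 0.74 to 1.10 for Grem1 and 0.35 to 0.52 for Ebf3. Centring the arrays on their medians gave 0.89, 0.92 and 0.50 for Angptl1, Grem1 and Ebf3, and centring with scaling gave 0.90, 0.93 and 0.49. Grem1 had the higher mean of the leading pair with all arrays, and Angptl1 without T2, without T3 or with the sign of T2 turned, so their order does not hold against the spread between pairs. The median over arrays in place of the mean was 0.84 for Angptl1, 1.02 for Grem1 and 0.36 for Ebf3.

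**Figure D5:**
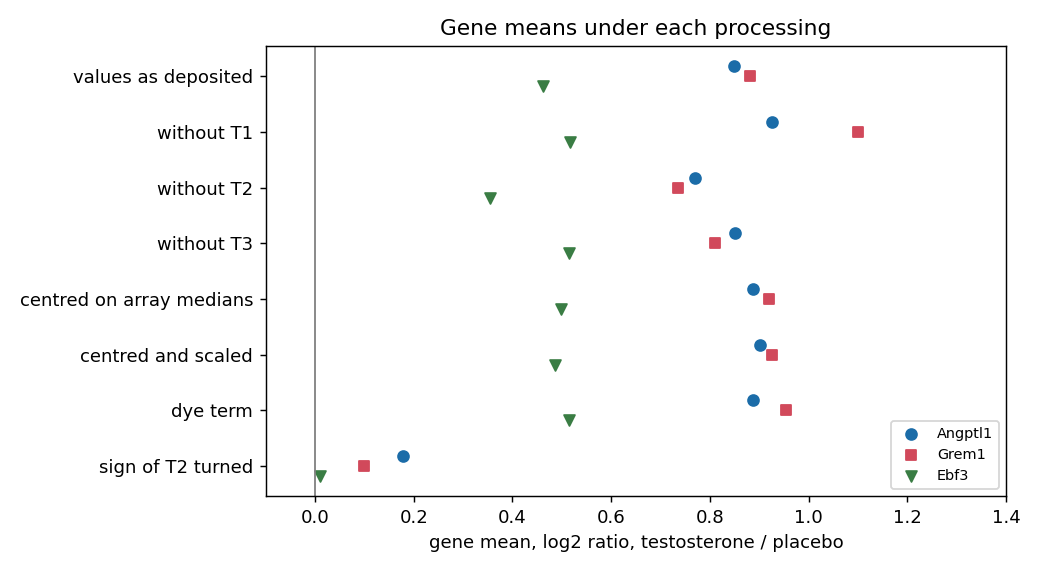
Gene mean log2 ratio of testosterone to placebo (x axis) for Angptl1 (circles), Grem1 (squares) and Ebf3 (triangles) under 8 ways of processing (y axis). Ebf3 is the lowest of the 3 in each row, and the means come near 0 only where the sign of T2 is turned (0.18, 0.098 and 0.01).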

How the data were processed

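RNA from pulverized bones of 3 pairs of castrated mice, labelled bone marrow, was hybridized to 3 two-colour spotted arrays. The deposited table holds 1 signed log value per spot and array, read here as a log2 ratio. The sources used here do not state its base, direction, background correction or scaling. Values were used as deposited. The sign of T2 was kept, since its correlations over the tested spots were positive, 0.42 with T1 and 0.73 with T3 (T1 with T3 0.49). Of 11552 spots, 9007, 6771 and 6982 had values on T1, T2 and T3. The number of arrays limits the precision.

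Genes were taken from the platform annotation where it gave 1 gene (8050 spots, against 672 with several and 2830 with none). Symbols were updated by Entrez ID through RefSeq's GRCm38.p6 table (7880 spots matched). Of 66 control or non-mouse spots, 12 had complete values and were left out. Spots and gene means were tested against 0 by a two-sided moderated test (limma 3.58.1, functions lmFit and eBayes, under R 4.3.3). Benjamini-Hochberg adjustment ran over the whole table. Only the main fit at spot level was tried on simulated data, with noise of the same spread on all 3 arrays, unlike the measured arrays. Promoter windows came from RefSeq. The members and lists were chosen with earlier results of these data known. The text names every spot of the 3 genes, any measured gene of the 7 related lists, the 3 nearest genes to each member, and called or smallest-p genes of other marker lists. Of these last, only part are printed, Col6a1, Scd1, Aoc3 and the 3 B-lineage genes of lowest mean, picked after their values were seen.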

Additional observations from a re-analysis of the deposited data

How the results depend on the processing

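Between arrays the values of a gene differed by up to 0.73 (Grem1), and without spot intensities, not used here, signal over background is unknown. The gene means of Angptl1, Grem1 and Ebf3 moved by less than 1 SD under every alternative except the turned sign of T2, which gave 0.18, 0.098 and 0.01. With that sign turned, Ebf3 spot A went below 0 (-0.089), the other 4 spots stayed above 0, 0 spots were called (20 at an unadjusted p under 0.05, of 6039, by limma) and 0 genes (19 at an unadjusted p under 0.05, of 3493). The causes of the following changes were not tested. Spots called higher numbered 68, against 4 after median centring, 595 after centring and scaling, 785 with a dye term and 0 to 682 when 1 array was left out (682 without T1, 21 without T2, 0 without T3). Spots called lower numbered 103, against 53, 221, 524 and 38 to 413 (413 without T1, 63 without T2, 38 without T3). Genes called higher numbered 64, against 8, 173, 201 and 1 to 300 (300 without T1, 1 without T2, 1 without T3), and genes called lower 116, against 55 after median centring, 213 with a dye term and 32 to 337 (337 without T1, 35 without T2, 32 without T3). In the 7 related lists without the 3 genes, 0 were higher and 2 lower, against 2 higher after centring and scaling and 5 with a dye term. Leaving out 1 array gave 0 to 7 higher (7 without T1) and 1 to 4 lower (4 without T1, 1 without T2, 1 without T3), and the turned sign of T2 gave 0 lower (0 higher). Robust eBayes and spots on at least 2 arrays kept the counts over all genes within 1.5 times.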

Other observations

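Relatives of the 3 genes that gave values on fewer than 3 arrays stand outside the comparison, and are given as values. Ebf2, a relative of Ebf3 in the same transcription factor family, was measured on T1 only, at -0.061. Ebf1 had no spot annotated to it alone. Of the BMP antagonists, Chrdl1, a chordin-like protein, had 3 such spots, at 0.459 and -0.482 on T1 and -0.281 on T3. Nbl1, of the same cystine-knot family as Grem1, stood at 0.14 on T1, and Sostdc1 at -0.16, also on T1. A second spot of Fst had 0.453 on T2 and 0.409 on T3. The BMP target Id3 had 2 spots, at 0.217 and 0.295 on T2 and at 0.007 and 0.268 on T3, and the inhibitory Smad7 had -0.154 and -0.17 on T1. Of the angiopoietins, Angpt2 had 0.017 and -0.051 on T1, and the receptor Tek (Tie2) 0.07 on T1 and 0.143 on T2. In the stromal list the surface enzyme Nt5e was above 0 on both arrays that measured it, 0.515 on T1 and 0.485 on T2, and the cytokine Il7 had 0.265 and 0.224 on T1. Lepr, a defining marker of marrow reticular cells, had a spot without a value on any array.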
